A study of Mus musculus with 6 samples.

Results

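Genes of serotonin and histamine signalling were followed in macrophages of regenerating mouse muscle, as a set of 9 named genes of which 8 could be measured among the 19938 genes tested. The set holds the serotonin receptor genes Htr2b and Htr7, the histamine receptor genes Hrh1 and Hrh2, the adrenergic receptor gene Adrb1, the histamine-forming enzyme gene Hdc, the vesicle carrier gene Slc18a2, and the breakdown enzyme genes Maoa and Hnmt. Each gene was taken from the array probe set that carries its symbol alone, and the choice used the level over all 6 arrays where there were several. Adrb1 was not analysed here.

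The arrays compare Ly6C- F4/80high cells with Ly6C+ F4/80low cells, sorted from the same 3 mice on day 2 after an injection of the snake toxin cardiotoxin, which destroys muscle fibres, into the tibialis anterior muscle. Each subset has 3 arrays, 1 per mouse. All mice were of the strain B6.129P2-Lyzstm1(cre)Ifo/J, which carries Cre at the lysozyme gene active in myeloid cells, so both subsets share that allele, and no strain without it enters the comparison; the age of the mice is not stated in the labels. Before the sort, leukocytes were enriched by magnetic selection for CD45. Over probe sets, arrays within a subset had correlations of 0.990 to 0.993, and arrays from different subsets 0.979 to 0.982. The macrophage label was checked against its markers. Cd68, a lysosomal protein gene of macrophages, stood at 12.4 to 12.5 in the Ly6C- F4/80high cells and 12.1 to 12.2 in the Ly6C+ F4/80low cells, and all 8 macrophage and monocyte markers measured 7.78 or more on every array.

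Serotonin is made from tryptophan and acts on cells through a family of receptors, nearly all of which couple to G proteins. Histamine is made from histidine by a single decarboxylase and acts through its own G protein-coupled receptors. Mast cells, basophils and platelets are the classic stores of these amines, and macrophages and their precursors carry receptors for them and can form histamine. Htr2b and Hrh1 are coupled mainly to Gq and phospholipase C, whereas Htr7, Hrh2 and Adrb1 raise cyclic AMP through Gs.

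The promoters of Htr2b, Hdc and Hrh2 are shown because Htr2b and Hdc had the largest differences of the set, in opposite directions, and Hrh2 was the receptor gene above background on every array that differed between the subsets. Each is the 250 bases before the annotated start of the gene in RefSeq (build GRCm38.p6), 5′ to 3′ on the strand of the gene. Capitals mark GAGGAA, the core bound by the myeloid factor PU.1, in Htr2b and Hrh2, and GGGCGG, the GC box, in Hdc.
Htr2b, chr1:86111981-86112230, minus strand: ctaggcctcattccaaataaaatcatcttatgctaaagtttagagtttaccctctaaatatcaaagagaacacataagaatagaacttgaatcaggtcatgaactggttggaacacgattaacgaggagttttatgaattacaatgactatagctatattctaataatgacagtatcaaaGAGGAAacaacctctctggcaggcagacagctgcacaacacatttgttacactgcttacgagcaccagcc
Hdc, chr2:126618679-126618928, minus strand: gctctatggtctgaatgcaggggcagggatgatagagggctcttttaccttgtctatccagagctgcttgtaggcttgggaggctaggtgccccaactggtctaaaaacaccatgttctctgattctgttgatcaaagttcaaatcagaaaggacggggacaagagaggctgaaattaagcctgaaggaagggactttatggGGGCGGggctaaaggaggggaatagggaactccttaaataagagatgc
Hrh2, chr13:54191883-54192132, plus strand: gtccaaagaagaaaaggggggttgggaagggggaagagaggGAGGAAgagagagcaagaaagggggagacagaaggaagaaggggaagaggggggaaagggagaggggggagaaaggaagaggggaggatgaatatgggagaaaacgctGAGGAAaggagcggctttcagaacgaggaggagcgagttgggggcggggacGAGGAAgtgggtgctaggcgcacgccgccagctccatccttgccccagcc
The search covered both strands of the same window for these motifs and also for the TATA box TATAAA and the half-site of MAF factors, TGCTGA, all chosen with the sequences known. GAGGAA occurred 1 time in Htr2b, 70 bases before the start, and 3 times in Hrh2, at 209, 101 and 50 bases. These matches did not overlap another motif. It was present in 23.3% of the 32851 promoters of the table. GGGCGG occurred in Hdc at 48 bases and, left in lower case, in Hrh2 at 60 bases, and in 32.7% of all promoters. Neither TATAAA nor TGCTGA was found in these 3 windows, against 12.4% and 16.1% of all promoters. All 8 measured genes had an entry, and where a gene had several the first listed was used, as for Hrh2, which has 2. A match describes the letters and does not show that a factor binds there.

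Htr2b, a receptor gene for serotonin, had a far higher level in the Ly6C- F4/80high cells. All values are log2 expression, and each difference is the log2 value in Ly6C- F4/80high cells less that in Ly6C+ F4/80low cells. Htr2b stood at 9.25, 9.38 and 9.34 in the Ly6C- F4/80high cells of mice 1, 2 and 3, against 5.89, 5.31 and 5.32 in the Ly6C+ F4/80low cells. The means were 9.33 ± 0.07 in the Ly6C- F4/80high cells and 5.51 ± 0.33 in the Ly6C+ F4/80low cells (SD, n = 3 each), and the subsets did not overlap. The difference was 3.82 (SE 0.14), a 14.1-fold higher level, and it was 3.37, 4.08 and 4.02 in mice 1, 2 and 3. A background level of 5.44 was set from probe sets for olfactory and vomeronasal receptors, genes known from sensory neurons, of which 95% lie below it. Of the Ly6C+ F4/80low arrays only that of mouse 1 exceeded it, so the fold rests on a low side at about background. Htr2b and Hdc were named for their differences, which are therefore given as a description with no test. In sorted populations, fewer cells with a transcript and less of it per cell cannot be told apart.

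In RefSeq the Htr2b gene lies over Psmd1, a proteasome subunit gene, on the same stretch of chromosome 1. Psmd1 had 10.3, 10.3 and 10.4 in the Ly6C- F4/80high cells and 9.77, 9.76 and 9.77 in the Ly6C+ F4/80low cells, higher by 0.57 (SE 0.08, limma adjusted p = 0.000308). That difference has the sign of the Htr2b one and is far smaller; its part in the Htr2b value was not tested.

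Htr7, the Gs-coupled serotonin receptor gene of the set, ran the other way at a level under the background. It had 4.63, 4.26 and 4.59 in the Ly6C- F4/80high cells and 5.12, 5.36 and 5.35 in the Ly6C+ F4/80low cells. No array reached 5.44, though the subsets did not overlap. The fit called it lower, by -0.79 (SE 0.11, limma adjusted p = 0.000513), and no fold is given because neither subset was above background.

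**Figure D1:**
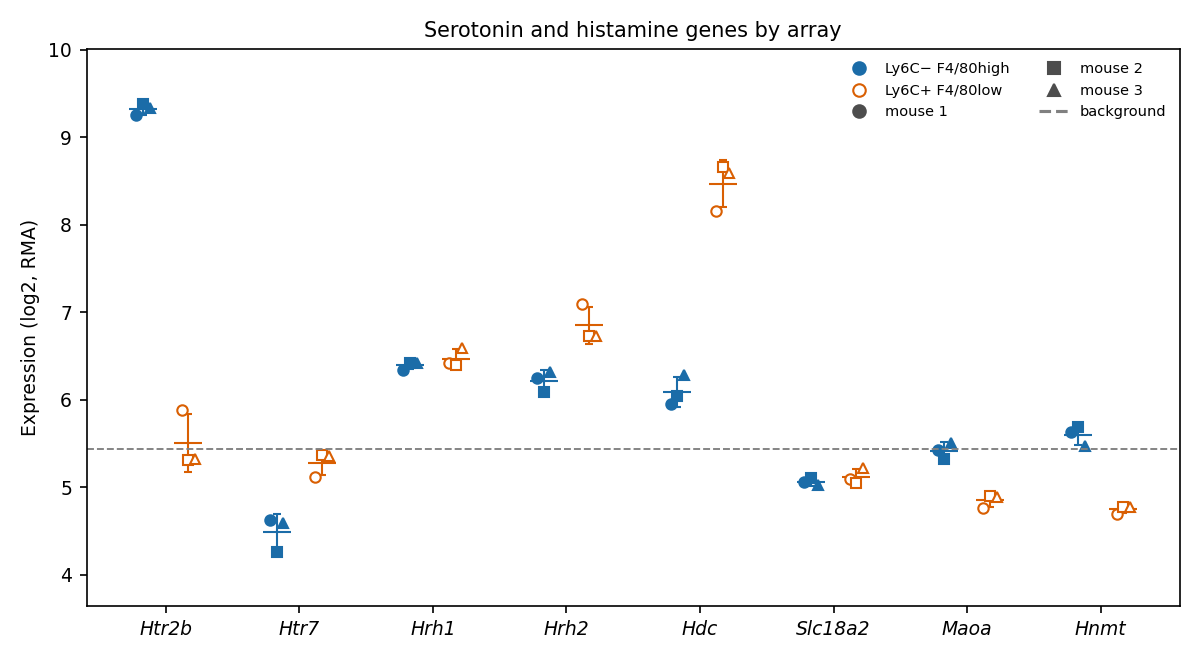
Expression (log2, RMA) of the 8 measured genes on each array, with Ly6C- F4/80high arrays filled and on the left of each pair and Ly6C+ F4/80low arrays open. Symbols are mice, the horizontal bar and whiskers are the mean ± SD (n = 3 per subset), and the dashed line is the background of 5.44; Htr2b and Hdc separate most, in opposite directions, while Slc18a2 and Htr7 lie under the line.

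Among the other serotonin receptor genes measured, limma called none higher, where 19.5% of all genes were. Htr6, a Gs-coupled receptor, had 5.36, 5.29 and 5.25 in the Ly6C- F4/80high cells, all under the background, and 5.77, 5.65 and 5.77 in the Ly6C+ F4/80low cells. It was at least 1.23-fold lower (limma adjusted p = 0.00191). Htr5a was called lower by -0.32 (SE 0.11, limma adjusted p = 0.0491) with all arrays under the background and overlapping subsets. That call was lost in 9 of 15 alternatives, among them leaving out any single array of mouse 1 or 3, or all of mouse 1 or 3 (limma adjusted p = 0.0930 with the mouse as a block, 0.0153 to 0.388 over all alternatives). Counting Htr7, 3 of the 13 serotonin receptor genes other than Htr2b were called lower, where 14.3% of all genes were, with differences between -0.79 and -0.08 and a median of -0.21. All 13 differences were negative, and so were 85.2% of those of the olfactory and vomeronasal receptor genes, whose median was -0.16. After quantile normalization 12 of the 13 were negative with a median of -0.10, and after cyclic loess 12 with a median of -0.09. Of the 13 genes 7 had no array above background.

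Hdc, which encodes the enzyme that forms histamine, had a lower level in the Ly6C- F4/80high cells. It stood at 5.95, 6.04 and 6.28 in the Ly6C- F4/80high cells of mice 1, 2 and 3, against 8.16, 8.66 and 8.59 in the Ly6C+ F4/80low cells. All 6 arrays exceeded the background and the subsets were far apart, with means of 6.09 ± 0.17 in the Ly6C- F4/80high cells and 8.47 ± 0.27 in the Ly6C+ F4/80low cells (SD, n = 3 each). The difference was -2.38 (SE 0.14), a 5.21-fold lower level in the Ly6C- F4/80high subset. Within mice it was -2.21, -2.62 and -2.31.

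Of the histamine receptor genes, Hrh2 differed and Hrh1 did not pass the test. Hrh2, the Gs-coupled receptor gene, had 6.25, 6.09 and 6.32 in the Ly6C- F4/80high cells and 7.09, 6.73 and 6.73 in the Ly6C+ F4/80low cells. The subsets did not overlap, and Hrh2 was 1.55-fold lower in the Ly6C- F4/80high subset, by -0.63 (SE 0.11, limma adjusted p = 0.00181). Its difference was -0.85, -0.64 and -0.41 in mice 1, 2 and 3. Gm16578 overlaps Hrh2 in RefSeq and was not analysed here. Hrh1, the Gq-coupled receptor gene, had 6.34, 6.42 and 6.43 in the Ly6C- F4/80high cells and 6.42, 6.39 and 6.59 in the Ly6C+ F4/80low cells. These values overlap, and the difference was -0.07 (SE 0.08, limma adjusted p = 0.507). Hrh3 and Hrh4, the receptor genes outside the set, were not called, at -0.26 and 0.06 (limma adjusted p = 0.105 and 0.728).

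Both breakdown enzymes of the set had higher levels in Ly6C- F4/80high cells, close to the background. Hnmt, which inactivates histamine by methylation inside cells, had 5.63, 5.69 and 5.47 in the Ly6C- F4/80high cells and 4.70, 4.77 and 4.77 in the Ly6C+ F4/80low cells. Only the Ly6C- F4/80high arrays exceeded the background, by a little, and the other subset lay under it. The fitted difference was 0.85 (SE 0.08, limma adjusted p = 4.51e-05), and against the background the gene was at least 1.12-fold higher.

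Maoa, the mitochondrial oxidase of serotonin and noradrenaline, had 5.43, 5.32 and 5.51 in the Ly6C- F4/80high cells and 4.76, 4.90 and 4.89 in the Ly6C+ F4/80low cells. The subsets did not overlap, but only the Ly6C- F4/80high array of mouse 3 was above background. The difference was 0.57 (SE 0.08, limma adjusted p = 0.000539), with no fold because the higher mean was itself under the background. Slc18a2, which loads amines into storage vesicles, had 5.06, 5.10 and 5.02 in the Ly6C- F4/80high cells and 5.09, 5.05 and 5.22 in the Ly6C+ F4/80low cells. No array was above background and the values overlapped, and the difference of -0.06 (SE 0.08, limma adjusted p = 0.561) had a sign that turned to 0.04 after quantile normalization and 0.07 after cyclic loess.

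By the fit across all genes, 3 of the 8 measured genes were called higher in the Ly6C- F4/80high cells (Htr2b, Hnmt and Maoa), where 19.5% of all genes were. Another 3 were called lower (Hdc, Hrh2 and Htr7), where 14.3% of all genes were. In either direction 33.8% of all genes were called. The same 6 had subsets that did not overlap, as did 48.1% of all genes. They were 3 in each direction, against 24.4% of all genes with the Ly6C- F4/80high arrays above and 23.6% with them below. The genes were chosen with this comparison known, so nothing is read from these counts. The median difference of the 8 was -0.07, against -0.06 over all genes. All 8 kept their side of the threshold in every alternative that tested them.

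Most markers of cells known for Hdc were near the background. Of 8 mast cell markers 7 had no array above it, among them the protease genes Cpa3, Cma1 and Mcpt4 and the IgE receptor genes Fcer1a and Ms4a2. Their summed linear signal was 155 to 182 in the Ly6C- F4/80high cells and 190 to 195 in the Ly6C+ F4/80low cells, with 2 of 8 called lower, where 14.3% of all genes were. Of 6 basophil markers 5 had no array above background, Mcpt8 and Prss34 included, with sums of 361 to 444 in the Ly6C- F4/80high cells and 339 to 387 in the Ly6C+ F4/80low cells, most of it from Il3ra. Il3ra averaged 8.41 in the Ly6C- F4/80high cells and 8.16 in the Ly6C+ F4/80low cells, a difference of 0.25. Of the 6 limma called 0, where 33.8% of all genes were called in either direction. At an unadjusted p under 0.05 it passed 4 of the 6, Il3ra higher and Mcpt8, Prss34 and Ms4a2 lower. Of all 19938 genes 8944 passed that cut. Fcer1a and Ms4a2 stand in both lists.

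Neutrophil markers were mostly under the background too. Of 10 such genes 7 had no array above it, Ly6g, Elane, Mpo and Cxcr2 among them. By limma 3 of the 10 were called lower in Ly6C- F4/80high cells (Ly6g, Cxcr2 and S100a9), where 14.3% of all genes were, and 0 higher. In either direction 5 passed an unadjusted p under 0.05, as did 8944 of all 19938 genes. Their sums were 306 to 347 in the Ly6C- F4/80high cells and 343 to 369 in the Ly6C+ F4/80low cells. S100a9, a calcium-binding protein gene of neutrophils and monocytes, had 5.02, 5.26 and 4.96 in the Ly6C- F4/80high cells and 5.63, 5.78 and 5.93 in the Ly6C+ F4/80low cells, at least 1.27-fold lower (limma adjusted p = 0.000681). S100a8, which encodes its binding partner and was the 1 gene of the list above background on all arrays, averaged 6.36 ± 0.18 in the Ly6C- F4/80high cells and 6.06 ± 0.22 in the Ly6C+ F4/80low cells (SD, n = 3 each). Its difference of 0.30 (SE 0.13, limma adjusted p = 0.0916) was positive in all 3 mice and was not called. Retnlg differed by 0.16.

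Other lists held genes called in the direction of Hdc and Hrh2, where 14.3% of all genes were called lower, and their part in those results was not tested. Dendritic cell markers were called lower in 4 of 7 cases, with Xcr1 and Clec9a at background throughout and sums of 303 to 321 in the Ly6C- F4/80high cells and 447 to 474 in the Ly6C+ F4/80low cells. Endothelial markers were called lower in 5 of 6 cases (sums of 345 to 363 in the Ly6C- F4/80high cells, and 549.8 to 582 in the Ly6C+ F4/80low cells). Fibroblast markers were called lower in 4 of 5 cases (sums of 251 to 267 in the Ly6C- F4/80high cells, and 318 to 415 in the Ly6C+ F4/80low cells). Eosinophil markers were called lower in 2 of 6 cases (sums of 168 to 203 in the Ly6C- F4/80high cells, and 206 to 231 in the Ly6C+ F4/80low cells), with 5 of the 6 at background. Platelet markers had sums of 4771 to 6208 in the Ly6C- F4/80high cells and 2645 to 3969 in the Ly6C+ F4/80low cells. Of the 5 measured only Pf4, a chemokine gene, was called, higher by 1.38 (SE 0.15, limma adjusted p = 9.48e-05). The other 4, Itga2b, Ppbp, Gp9 and Treml1, differed by -0.02, -0.08, -0.27 and -0.16, and the median of the list was -0.08. Muscle markers and those of T, B and NK cells were each called lower in 1 of 8 cases, near the share of all genes. Of the 8 macrophage and monocyte markers 3 were called higher and 3 lower, where 19.5% and 14.3% of all genes were. Mertk, a receptor for the uptake of dead cells, was 2.97-fold higher, Adgre1, which encodes the sorted antigen F4/80, 1.66-fold higher, and Cd68 1.24-fold higher. Cd14, Fcgr1 and Itgam differed by -0.42, -0.28 and -0.23. The part of these markers in the Htr2b and Hdc values was not tested.

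**Figure D2:**
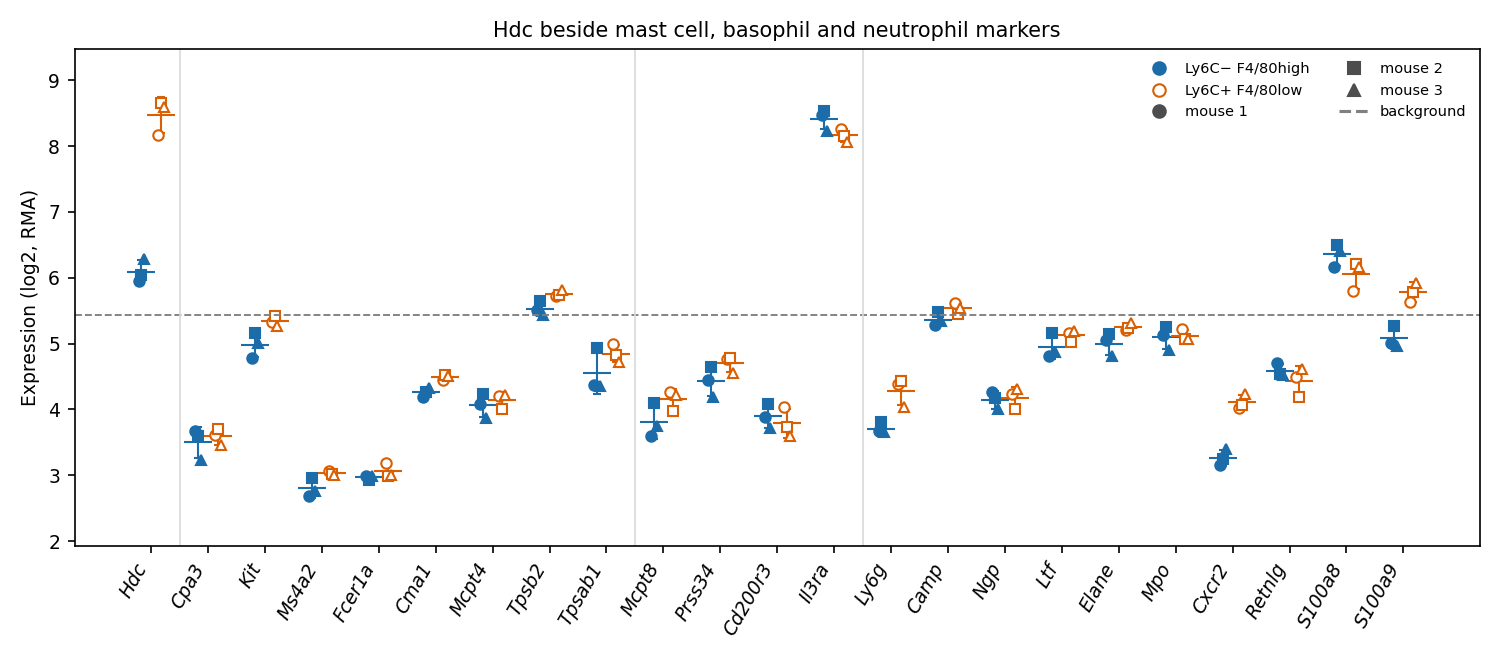
Expression (log2, RMA) of Hdc and of mast cell, basophil and neutrophil markers, in that order and divided by vertical lines, on each Ly6C- F4/80high (filled, left) and Ly6C+ F4/80low (open, right) array. Bars and whiskers are the mean ± SD (n = 3 per subset) and the dashed line is the background of 5.44; most markers lie under it, whereas Hdc lies above it in both subsets.

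The wider monoamine pathway held 55 further genes, of which 45 were measured. Of these genes 4 were called higher in the Ly6C- F4/80high cells, 6 lower and 35 neither, where 19.5% and 14.3% of all genes were called, with a median difference of -0.16 against -0.06 over all genes. With quantile normalization 4 were higher and 4 lower, where 15.8% and 14.8% of all genes were, and with cyclic loess 4 and 3, where 16.5% and 13.8% were. Of the 45 genes 22 had no array above background. The count of lower genes varied with the arrays used, and so did that of all genes. It was 3 when the array of mouse 1 was left out from the Ly6C- F4/80high subset and 12 when that of mouse 2 was, where 9.36% and 16.5% of all genes were lower. It was 11 without mouse 2 and 2 without mouse 3, where 14.6% and 6.63% of all genes were.

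Among synthesis genes, those of the cofactor tetrahydrobiopterin differed in both directions. The hydroxylases of serotonin and dopamine formation need this cofactor, and so do nitric oxide synthases. Qdpr, which regenerates the cofactor, had 8.46, 8.40 and 8.80 in the Ly6C- F4/80high cells and 7.33, 7.38 and 7.33 in the Ly6C+ F4/80low cells. The level was 2.31 times as high, a difference of 1.21 (SE 0.11) with a limma adjusted p of 2.32e-05. Pts, the second enzyme of cofactor synthesis, was higher by 0.44 (SE 0.09, limma adjusted p = 0.00485), a call lost without mouse 1 or mouse 3 (limma adjusted p = 0.00158 to 0.0690 over 16 alternatives).

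Gch1, the rate-limiting enzyme of that synthesis, went the other way. It had 7.63, 7.32 and 7.64 in the Ly6C- F4/80high cells and 7.98, 8.16 and 8.17 in the Ly6C+ F4/80low cells, a difference of -0.57 (SE 0.10, limma adjusted p = 0.00216) with no overlap. Pnmt, which forms adrenaline, was called lower by -0.45 (SE 0.11, limma adjusted p = 0.0103), with 1 of 6 arrays above background, and lost its call without mouse 3 (limma adjusted p = 0.00422 to 0.111 over 15 alternatives). The tryptophan hydroxylase genes Tph1 and Tph2, which start serotonin synthesis, and Ddc, the next enzyme, had no array above background and differed by -0.04, -0.01 and 0.04.

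Transport and breakdown genes outside the set added Slc18a1 and Aldh2. Slc18a1, the other vesicular amine carrier, had 5.55, 5.71 and 5.48 in the Ly6C- F4/80high cells and 5.15, 4.71 and 4.78 in the Ly6C+ F4/80low cells, the last 3 under the background. It was at least 1.11-fold higher (limma adjusted p = 0.00137). Aldh2, the mitochondrial dehydrogenase that clears the aldehydes left by amine oxidation among others, had 10.2, 10.7 and 10.4 in the Ly6C- F4/80high cells and 9.54, 9.38 and 9.42 in the Ly6C+ F4/80low cells. The level was 1.98 times as high, a difference of 0.99 (SE 0.11) with a limma adjusted p of 0.000121.

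The remaining called genes of the list were low. Slc6a2, the noradrenaline uptake carrier, differed by -0.41 (SE 0.11, limma adjusted p = 0.0165) with 1 of 6 arrays above background. Its call was lost in 5 of 15 alternatives, among them leaving out either array of mouse 1, or all of mouse 1 or mouse 3 (limma adjusted p = 0.0128 to 0.134 over all of them). Aoc1, the diamine oxidase that degrades histamine outside cells, differed by -0.32 (SE 0.11, limma adjusted p = 0.0414) with no array above background. That call was lost in 10 of 15 alternatives, including the mouse as a block (limma adjusted p = 0.0634, 0.00593 to 0.254 over all of them), the removal of any Ly6C- F4/80high array, of the Ly6C+ F4/80low array of mouse 1 or 3, and of mouse 1 or 3. Slc6a4, the serotonin uptake carrier, differed by -0.02. Of 7 measured dopamine and adrenergic receptor genes limma called 0, where 33.8% of all genes were called in either direction. Their differences were -0.22 to -0.11, and 2 passed an unadjusted p under 0.05, as did 8944 of all 19938 genes. Of the 7 genes 5 had no array above background, which limits what the absence of calls can show.

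**Figure D3:**
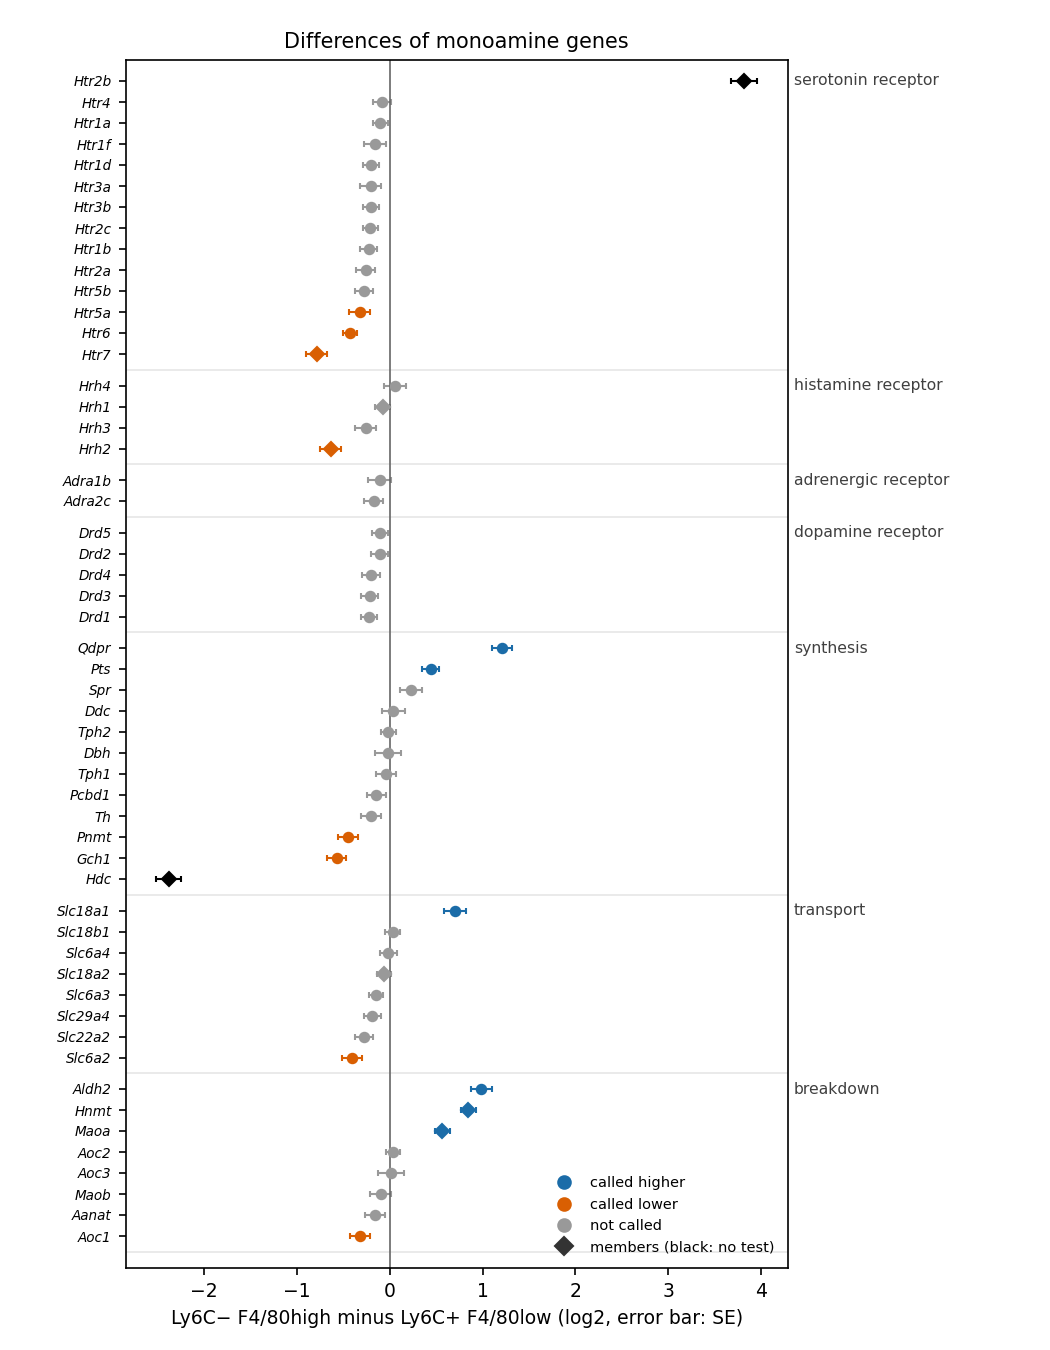
Difference between the subsets (log2, Ly6C- F4/80high minus Ly6C+ F4/80low, with its SE) for the 53 measured genes of the monoamine list, grouped by role from receptors to breakdown. Diamonds are the followed genes, with Htr2b and Hdc in black, and colour marks limma calls; Htr2b at 3.82 and Hdc at -2.38 stand outside the range of -0.79 to 1.21 that holds the other genes.

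Genes that carry the signal of these receptors were split between the subsets. Of 40 measured genes of G protein coupling 8 were called higher in the Ly6C- F4/80high cells, 10 lower and 22 neither, with a median of -0.10. Over all genes 19.5% were called higher and 14.3% lower. After quantile normalization the calls were 7 higher and 14 lower, where 15.8% and 14.8% of all genes were. Cyclic loess gave 10 higher and 14 lower, where 16.5% and 13.8% of all genes were. In the Gq and phospholipase C arm used by Htr2b and Hrh1, 2 of 14 were called higher and 2 lower, against 19.5% and 14.3% of all genes. Plcb1, a phospholipase C isoform, had 6.69, 6.52 and 6.57 in the Ly6C- F4/80high cells and 8.31, 8.51 and 8.35 in the Ly6C+ F4/80low cells. It was 3.48-fold lower, by -1.80 (SE 0.09, limma adjusted p = 5.90e-07).

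Prkce, a protein kinase C isoform of the same arm, differed by -1.12 (SE 0.10, limma adjusted p = 3.35e-05). Gnaq, the Gq subunit itself, differed by 0.07 (SE 0.09, limma adjusted p = 0.559), with overlapping subsets. Called higher in this arm were Gna15, by 0.60 (SE 0.12, limma adjusted p = 0.0040), and Gna11, by 0.28 (SE 0.09, limma adjusted p = 0.0316). Grk5, a kinase that desensitizes activated receptors, had 7.15, 7.12 and 7.08 in the Ly6C- F4/80high cells and 8.19, 8.45 and 8.36 in the Ly6C+ F4/80low cells. It was 2.32-fold lower, by -1.22 (SE 0.09, limma adjusted p = 5.70e-06). With Grk3 it made 2 of 6 receptor kinase and arrestin genes called lower, where 14.3% of all genes were. Grk4 was the 1 called higher, where 19.5% of all genes were. It differed by 0.27 (SE 0.08, limma adjusted p = 0.0280), with no array above background.

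In the Gs and cyclic AMP arm used by Htr7 and Hrh2, 5 of 20 genes were higher and 6 lower, against the same 19.5% and 14.3% of all genes. Adcy3, an adenylyl cyclase, had 7.66, 7.32 and 7.43 in the Ly6C- F4/80high cells and 6.17, 6.09 and 6.02 in the Ly6C+ F4/80low cells. The level was 2.60 times as high, a difference of 1.38 (SE 0.10) with a limma adjusted p of 6.02e-06. Adcy9, another cyclase, was higher by 0.86 (SE 0.09, limma adjusted p = 7.15e-05) and Prkar2b, a regulatory subunit of protein kinase A, by 0.87 (SE 0.13, limma adjusted p = 0.000523). Prkacb and Prkar2a completed the 5, higher by 0.86 and 0.48 (limma adjusted p = 3.31e-05 and 0.00251). The cyclases Adcy4 and Adcy5 were called lower, by -0.50 and -0.34 (limma adjusted p = 0.00144 and 0.0356). Pde3b, Crem, Pde4b and Pde4d were also called lower, by -0.74, -0.70, -0.63 and -0.32 (limma adjusted p = 0.000597, 0.00337, 0.000526 and 0.0431). Gnas was not analysed here.

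**Figure D4:**
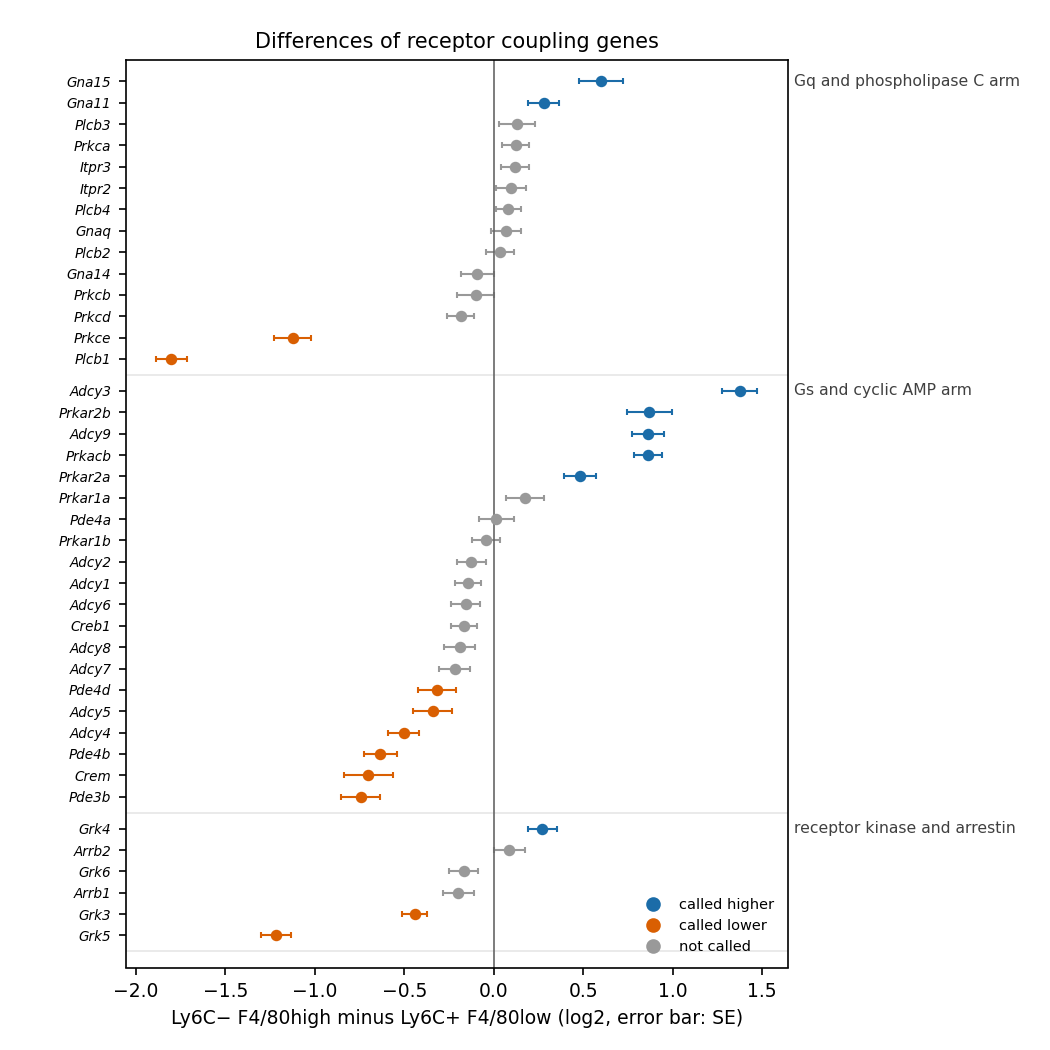
Difference between the subsets (log2, Ly6C- F4/80high minus Ly6C+ F4/80low, with its SE) for 40 genes of receptor coupling in 3 groups. Colour marks limma calls; Plcb1 at -1.80 and Adcy3 at 1.38 are at the ends of the range.

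The genes most like Htr2b and Hdc were sought by the Euclidean distance between log2 values over the 6 arrays after each gene was centred on its mean. Nearest to Htr2b were Atp6v0d2, a lysosomal proton pump subunit gene, at a distance of 0.59, the growth factor gene Igf1 at 0.77 and the protease inhibitor gene Serpinb6a at 0.85. Their differences of 3.88, 3.25 and 3.24 stand beside 3.82 for Htr2b. Nearest to Hdc were Trem1, a receptor that amplifies inflammation, at 0.23, the decoy receptor gene Il1r2 at 0.44 and the lectin receptor gene Clec4n at 0.49. Il1r2 had 5.93, 5.97 and 5.77 in the Ly6C- F4/80high cells and 8.07, 8.31 and 8.28 in the Ly6C+ F4/80low cells, and its difference of -2.33 stands beside -2.38 for Hdc. With 2 subsets of 3 arrays, such a distance mainly reads the size of the subset difference.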

How the data were processed

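Total RNA of 6 sorted samples (150 ng each) was labelled with Affymetrix kits, 1 array per sample, per the labels' protocols. The authors deposited log2 expression values from RMA, per the submitters' processing notes. RMA corrects background, quantile-normalizes the arrays and summarizes probe sets. The log2 scale was read from the values, and the software settings are not stated in the labels. RMA compresses low signals, which understates differences of weak genes. Arrays give no read depth, and their number limits the precision.

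Of 35556 probe sets 21789 had 1 gene symbol, 1621 several and 12146 none in the annotation given. The Entrez identifiers of 21698 were found in the RefSeq table of GRCm38.p6, and 0 symbols changed. Each of the 19938 genes was represented by its probe set of highest mean. The test was that of limma 3.58.1, run in R 4.3.3 (two-sided, no filter on level), with Benjamini-Hochberg adjustment over all genes and calls under 0.05. The fit was tested on simulated data. Where all arrays of 1 subset lay under the background of 5.44, those arrays were set to it and the fold is a lower bound. That background was set after the values were seen.

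The genes followed and the lists were chosen with earlier results of these data known. Named are the set, every called gene of the monoamine list, the 3 largest called differences each way in the coupling list, and the 3 genes nearest to Htr2b and Hdc, leaving out predicted, RIKEN, olfactory, vomeronasal and small RNA genes. Markers, Psmd1, Gnaq, Gna11, Gna15, Grk3, Grk4 and the other genes called in the Gs and cyclic AMP arm were chosen after their values were seen. So were receptor, synthesis and uptake genes that were not called. All are named beside the results they touch. Both subsets come from the same mice, so arrays are paired by mouse. Deviations from the subset means correlated within the pairs at 0.03, -0.08 and 0.09. The mouse as a block was an alternative, as were 3 scalings, a filter that left out 50% of genes by level, the mean of probe sets, a trended robust prior, and leaving out each array or mouse.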

Additional observations from a re-analysis of the deposited data

How the results depend on the processing

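The measured genes of the set gave 124 differences under 16 alternatives. Of these 121 kept their direction and side of the threshold. The other 3 concern Slc18a2, not called in any, at -0.0617 as reported, whose value with quantile normalization was 0.0411, with cyclic loess 0.0654, and -0.1175 to 0.0077 when an array or mouse was left out, the highest without mouse 3. Without the 50% of genes of lowest level only 4 of the set were tested, so 1 was called higher and 2 lower. The other monoamine genes gave 3 higher and 2 lower among 9. Of all genes kept by that filter 38.0% were called higher and 19.3% lower. Cyclic loess gave 4 of them higher and 3 lower among 45, where 16.5% and 13.8% of all genes were. Leaving out each array or mouse gave 3 higher and 3 lower in the set throughout. It gave 3 to 5 higher and 2 to 12 lower other monoamine genes, and 6 to 8 higher and 8 to 10 lower coupling genes. Of all genes 13.4% to 18.0% were then called higher and 6.63% to 16.5% lower. The cause of the varying counts was not tested. With the mouse as a replicate block the pairing gave 3 higher and 3 lower in the set, 4 and 5 among other monoamine genes, and 7 and 9 among coupling genes. Of all genes 18.3% were then called higher and 12.6% lower. The block ended the calls of Htr5a and Aoc1 among the set, the called monoamine genes and the 3 largest coupling differences each way. Calls of the other genes named were not compared. With the 99th percentile of receptor genes, 6.16, as background, 1 gene of the set (Hrh1) lay above it on all arrays, in place of 3. Signals near the background limit Htr7, Slc18a2, Maoa and Hnmt, and the low sides of the Htr2b and Hdc folds.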
